A study of Danio rerio with 18 samples.

Results

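Oxidative phosphorylation in zebrafish larvae was followed through 89 nuclear genes, of 32520 in the deposited table. Their symbols name subunits of complex I, III, IV or V, the inhibitory factors of complex V or cytochrome c. They were selected by symbol (nduf, uqcr, cox, atp5 and cytochrome c names, leaving out the ndufaf assembly factors), a rule that uses no measured value, although earlier results of these data were known when the set was chosen. The 89 comprised 37 genes of complex I, 9 of complex III, 18 of complex IV, 19 of complex V, 2 for cytochrome c and the 4 genes of the NDUFA4 family. NDUFA4 carries a complex I name but is known in mammals as a component of cytochrome c oxidase, so that family was kept apart.

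All samples were whole bodies of AB wild type larvae at 120 hours post fertilisation (hpf). They formed 6 groups of 3: exposed to perfluorobutanesulfonic acid (PFBS, a short-chain perfluorinated surfactant) at 7, 70, 700, 3500 or 7000 µM, and unexposed controls. How many larvae made up a sample, how long they were exposed and in which vehicle is not stated in the labels. Whether replicates were separate pools of larvae is not stated either; p-values therefore refer to the spread of these libraries, part of which may be technical.

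The respiratory chain sits in the mitochondrial inner membrane. Complex I passes electrons from NADH to ubiquinone, complex III passes them to cytochrome c and complex IV passes them to oxygen; the proton gradient this builds drives ATP synthesis by complex V. A small set of catalytic subunits is encoded in mitochondrial DNA, and the nuclear genes described here supply the remaining core subunits and the accessory ones. Tissues with a high energy demand, such as skeletal muscle and heart, are rich in these transcripts.

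Library totals ran from 14937147 to 19267232 counts. One library stood apart: replicate 3 at 7000 µM lay at 74.5 on the first principal component (30.9% of the variance), against 34.1 and 20 for replicates 1 and 2 at that concentration. The same library had the lowest share of counts from 28 fast skeletal muscle genes, at 3.71%, against 9.85% and 9.72% in the other 7000 µM samples and 15.6 to 16.3% in controls. Counts of calls at 7000 µM that change by over 1.5 times without it are given both ways, except for some tissue lists named below. Among controls, replicate 3 lay at -13.7 on the first component, against -39.7 and -36.1 for replicates 1 and 2. That control enters every comparison with controls. Members were tested with edgeR's quasi-likelihood test over all 21046 genes that passed a filter on low counts, with Benjamini-Hochberg adjustment and a threshold of 0.05. Of the 89 members, 87 passed that filter. The cytochrome c gene cycsa had 0 counts in all 18 libraries, a level under the floor of 3 counts per library (0.201 CPM at the lowest depth). The NDUFA4 family gene ndufa4l2b did not exceed 0.28 CPM. Levels are given as CPM, deposited counts scaled to a common library size with TMM factors, and fold changes as log2 values ± SE.

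Up to 700 µM no member passed the test, and at 3500 µM many rose together. No member was called at 7 µM, where 0.0333% of all genes were called, at 70 µM (0.28% of all genes) or at 700 µM (3.2% of all genes, 1.27% higher and 1.93% lower). By unadjusted p under 0.05 there were 1, 3 and 6 members at these concentrations, and DESeq2 called 0 at each. Median log2 fold changes over the members were 0.01 at 7 µM, -0.05 at 70 µM and 0.09 at 700 µM. At 3500 µM, 39 of the 87 members rose (44.8%), where 9.47% of all genes tested were called, 5.14% higher, and the median over members was 0.35, a 1.27-fold difference, beside 0.01 over all genes. None fell at 3500 µM, by edgeR or DESeq2, where 4.33% of all genes were called lower. All 87 fitted values lay above 0, between 0.01 and 0.76, and none fell at an unadjusted p under 0.05. In 67 of the 87 members all 3 samples at 3500 µM lay above all 3 controls, against 16.2% of all genes, and in 0 all lay below them (13.5% of all genes).

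Summed over the members, levels were 12299.1, 10747.8 and 11800.3 CPM at 3500 µM, against 9405.1, 9451.1 and 9902.6 CPM in controls. The groups did not overlap, and replicate 2 at 3500 µM lay nearest to the controls. TMM factors were 0.8933, 0.9624 and 0.8945 at 3500 µM, below those of the control libraries (0.9925 to 1.013). As plain shares of the deposited counts, without those factors, the members took 1.06 ± 0.0361% at 3500 µM, against 0.958 ± 0.0226% in controls (SD, n = 3 each). With library totals as the only scaling, the median of all genes at 3500 µM was -0.12, the members' median was 0.22, and 81 of 87 lay above 0, so the members stood 0.33 above the median gene, beside 0.34 with TMM. That scaling called 14 members higher; among all genes, 20.9% of the calls were then higher, against 54.3% with TMM and 38.9% with upper-quartile factors.

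**Figure D1:**
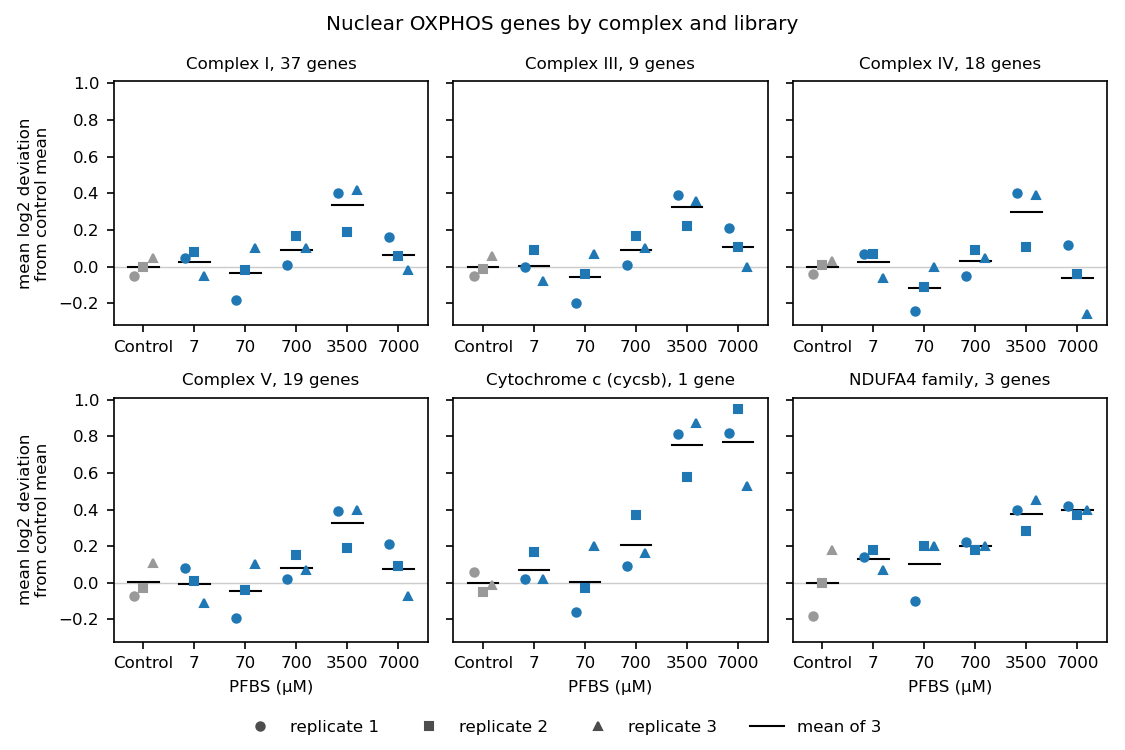
Mean log2 deviation from the control mean of each gene (CPM with a pseudocount of 0.5, averaged over the genes of a complex), for each library at each PFBS concentration; bars are means of 3. At 3500 µM every library lies above the 3 controls in each panel, while at 7000 µM cytochrome c and the NDUFA4 family alone stay clear of the controls in all 3 libraries.

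By complex, 20 of 37 complex I genes, 5 of 9 in complex III, 5 of 18 in complex IV and 6 of 19 in complex V rose at 3500 µM. Their median log2 fold changes were 0.36, 0.32, 0.29 and 0.35. The mean deviation from the control mean was 0.34 ± 0.13 for complex I, 0.32 ± 0.09 for complex III, 0.30 ± 0.165 for complex IV and 0.33 ± 0.12 for complex V (SD, n = 3). The complexes were measured in the same libraries, so these SDs do not measure the differences between complexes, which were not tested.

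Within complex I, the accessory subunits, which surround and stabilise the catalytic core, held most of the calls. At 3500 µM 7 of 12 A subunits (median 0.43), 7 of 11 B and C subunits (0.42) and all 4 S and V accessory subunits (0.42) rose. Of the 8 catalytic core genes, which carry the flavin and the iron-sulphur clusters, 1 rose, with a median of 0.20. That gene was ndufs7, the subunit with the last iron-sulphur cluster before ubiquinone, at 96.3, 78 and 91.7 CPM at 3500 µM and 66.5, 72.9 and 69 CPM in controls (log2 0.35 ± 0.10, adjusted p = 0.033); it was named after its values were seen. The core genes had longer transcripts, with a median of 1265.5 nt, against 714 nt for the A subunits and 664 nt for the B and C subunits. Among the 8 core genes, ndufs8b had a low level. Its tested transcript, annotated as a polymorphic pseudogene, had a mean of 12.5 counts. The difference between core and accessory genes was not tested.

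ndufs6, a zinc-binding accessory subunit, had 52.3, 46.4 and 56.1 CPM at 3500 µM and 48.9, 42.1 and 43.5 CPM at 7000 µM, against 35.1, 34.9 and 36.2 CPM in controls. Every sample of both exposed groups lay above every control. The log2 fold changes were 0.54 ± 0.11 at 3500 µM (adjusted p = 0.0073) and 0.34 ± 0.11 at 7000 µM (adjusted p = 0.033). ndufa1, a small membrane subunit, had 68.7, 65.2 and 77.8 CPM at 3500 µM and 74.4, 63.6 and 65.9 CPM at 7000 µM, against 52.5, 49.2 and 56.1 CPM in controls, again with no overlap. Its log2 fold changes were 0.42 ± 0.10 and 0.37 ± 0.10 at 3500 and 7000 µM (adjusted p = 0.019 and 0.016). ndufab1b, a mitochondrial acyl carrier protein that is also a complex I subunit, had 54, 44.7 and 61.2 CPM at 3500 µM and 52.4, 49.6 and 49 CPM at 7000 µM, against 37.5, 40.4 and 41 CPM in controls. Its log2 fold changes were 0.43 ± 0.11 (adjusted p = 0.02) and 0.35 ± 0.11 (adjusted p = 0.025). In an edgeR fit of transcripts, the more abundant ndufab1b transcript did not pass at 7000 µM (0.20, adjusted p = 0.23). The less abundant ndufab1b transcript did (0.73, adjusted p = 0.014). The other copy of that gene, ndufab1a, did not pass at either concentration (log2 0.29 and 0.08).

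ndufb8, an accessory subunit with one of the highest mean TPM values in complex I, had 166, 137 and 161 CPM at 3500 µM, against 126, 124 and 133 CPM in controls (log2 0.28 ± 0.10, adjusted p = 0.09). The groups did not overlap, but the gene did not pass the test.

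In complex III all 4 small subunits rose at 3500 µM, with a median of 0.46 and a median length of 648 nt. By edgeR 0 of the 3 core proteins passed, with a median of 0.17, a median length of 1676 nt and 1 of 3 at an unadjusted p under 0.05. uqcrb, a small structural subunit, had 156, 140 and 154 CPM at 3500 µM, against 105, 100 and 112 CPM in controls. The lowest exposed sample was well above the highest control. The log2 fold change was 0.50 ± 0.10 (adjusted p = 0.0053). It passed in each fit that left out 1 library. uqcrb overlaps another annotated gene on the same strand, so reads could have been divided between them.

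uqcrq, another small subunit, had 91.3, 78.7 and 92.5 CPM at 3500 µM, against 56.6, 65.6 and 67.3 CPM in controls (log2 0.47 ± 0.12, adjusted p = 0.021). uqcrh, the hinge protein that links cytochrome c1 to cytochrome c, had 115, 107 and 126 CPM at 3500 µM and 122, 112 and 99.9 CPM at 7000 µM, against 82.7, 79.7 and 92.9 CPM in controls. No sample of the exposed groups overlapped the controls. The log2 fold changes were 0.45 ± 0.11 (adjusted p = 0.017) and 0.38 ± 0.11 (adjusted p = 0.014). Of the redox subunits, uqcrfs1, the Rieske iron-sulphur protein, rose at 3500 µM (log2 0.32 ± 0.09, adjusted p = 0.042), and cyc1, cytochrome c1, did not pass (0.19 ± 0.08, adjusted p = 0.13).

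The mobile carrier between complexes III and IV had the largest fitted rise of any member at 3500 µM. cycsb (ENSDARG00000044562, chromosome 6, 10910589 to 10912424, minus strand, in the coordinates of the deposited table, whose genome build its header does not name) encodes cytochrome c. It had 160, 148 and 152 CPM in controls, 156, 173 and 156 CPM at 7 µM, 137, 150 and 177 CPM at 70 µM, 164, 198 and 172 CPM at 700 µM, 269, 229 and 280 CPM at 3500 µM and 270, 296 and 221 CPM at 7000 µM. The lowest value at 3500 or 7000 µM was above the highest value in any other group. The log2 fold change was 0.76 ± 0.12 at 3500 µM (1.69-fold, adjusted p = 0.001) and 0.78 ± 0.12 at 7000 µM (1.71-fold, adjusted p = 0.00038), and both calls held in each fit without 1 library. At 7000 relative to 3500 µM the log2 difference was 0.02 ± 0.12 (adjusted p = 0.95).

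**Figure D2:**
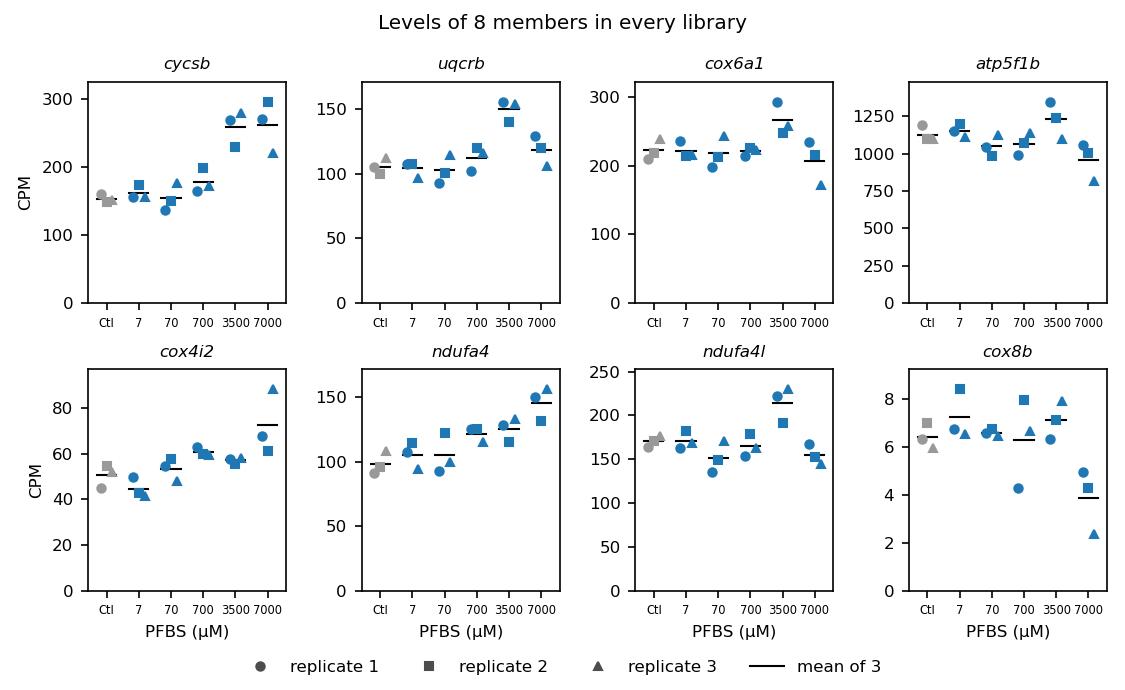
Levels in CPM (axes start at 0) of 8 members in every library, with bars for the mean of 3. cycsb is high at 3500 and 7000 µM, uqcrb is highest at 3500 µM, cox4i2 and ndufa4 are highest at 7000 µM, and cox8b is lowest there.

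In complex IV 5 of 18 genes passed at 3500 µM; differences between isoforms of a subunit were not tested. cox6c, a nuclear accessory subunit, had 129, 109 and 134 CPM at 3500 µM, against 100, 96.9 and 100 CPM in controls (log2 0.32 ± 0.09, adjusted p = 0.038). cox7a2a, the subunit 7A form used widely in mammals, had 91.4, 82.2 and 87.7 CPM at 3500 µM, against 59.6, 68.1 and 69.5 CPM in controls (log2 0.41 ± 0.10, adjusted p = 0.022). Neither overlapped the controls. The other isoform of subunit 7A, cox7a1, had 6.57, 3.5 and 6.54 CPM at 3500 µM, against 4.18, 5.69 and 4.6 CPM in controls, with replicate 2 below every control (log2 0.21 ± 0.27, adjusted p = 0.66).

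In mammals the second isoform of subunit 4 is known from lung and from cells at low oxygen. The common isoform cox4i1 had 328, 272 and 325 CPM at 3500 µM and 279, 257 and 234 CPM at 7000 µM, against 247, 258 and 253 CPM in controls. It did not pass at 3500 µM (log2 0.29 ± 0.10, adjusted p = 0.075) or at 7000 µM (0.02 ± 0.10, adjusted p = 0.89). cox4i2 had 57.8, 55.6 and 58.2 CPM at 3500 µM and 67.6, 61.4 and 88.3 CPM at 7000 µM, against 45, 54.6 and 52.1 CPM in controls. All 3 samples at 7000 µM lay above all other samples but 1 at 700 µM (62.8 CPM), which exceeded the lowest of them. It passed at 7000 µM (log2 0.52 ± 0.12, adjusted p = 0.0045), also in each fit without 1 library, where the log2 value ran from 0.35 to 0.63, and did not pass at 3500 µM (0.18 ± 0.12, adjusted p = 0.34). The less abundant cox4i1l spanned 1.59 to 4.24 CPM in controls and did not pass at either concentration.

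cox6a1, the widely used 6A isoform and among the members with the highest level per length, had 293, 247 and 257 CPM at 3500 µM, against 210, 218 and 238 CPM in controls (log2 0.26 ± 0.11, adjusted p = 0.13). cox8a had 216, 198 and 233 CPM at 3500 µM, against 174, 164 and 187 CPM in controls (log2 0.30 ± 0.10, adjusted p = 0.075). Neither gene overlapped the controls and neither passed the test.

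The calls in complex V were spread over its parts. The F1 catalytic head had 1 gene of 5 that rose at 3500 µM (median 0.21), the peripheral stalk 0 of 4 (median 0.26, 3 of 4 at an unadjusted p under 0.05), the c ring 2 of 3 (median 0.32) the other membrane subunits 2 of 5 (median 0.44) and the inhibitory factors 1 of 2 (median 0.43). atp5f1b, the catalytic beta subunit and the second most abundant member per length, had 1347.2, 1237.4 and 1098.5 CPM at 3500 µM and 1054.5, 1005.6 and 816 CPM at 7000 µM, against 1187.9, 1094.9 and 1096.3 CPM in controls. The samples at 3500 µM overlapped the controls and those at 7000 µM lay below them. Neither difference passed (log2 0.12 ± 0.11, adjusted p = 0.5, and -0.23 ± 0.11, adjusted p = 0.13).

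The c ring turns as protons cross the membrane, and vertebrates encode its single protein in several genes. atp5mc1 had 211, 191 and 223 CPM at 3500 µM and 218, 203 and 201 CPM at 7000 µM, against 165, 156 and 181 CPM in controls (log2 0.32 ± 0.09, adjusted p = 0.031, and 0.31 ± 0.09, adjusted p = 0.016). atp5mc3a had 191, 171 and 199 CPM at 3500 µM, against 144, 133 and 151 CPM in controls, and rose (log2 0.39 ± 0.09, adjusted p = 0.014). atp5mc3b, the most abundant member per length, had 592, 519 and 552 CPM at 3500 µM, against 433, 426 and 499 CPM in controls. It did not overlap the controls and did not pass (log2 0.29 ± 0.13, adjusted p = 0.15).

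atp5if1b, an inhibitor of ATP hydrolysis by complex V, had 93.6, 79.7 and 88.4 CPM at 3500 µM, against 60.7, 65.4 and 63.8 CPM in controls. The groups were well apart, and the log2 fold change of 0.46 ± 0.09 (adjusted p = 0.0069) passed in each fit without 1 library. Its copy atp5if1a had 44, 30.8 and 43.6 CPM at 3500 µM, against 27.6, 23 and 39.7 CPM in controls, with overlap (log2 0.39 ± 0.21, adjusted p = 0.25).

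**Figure D3:**
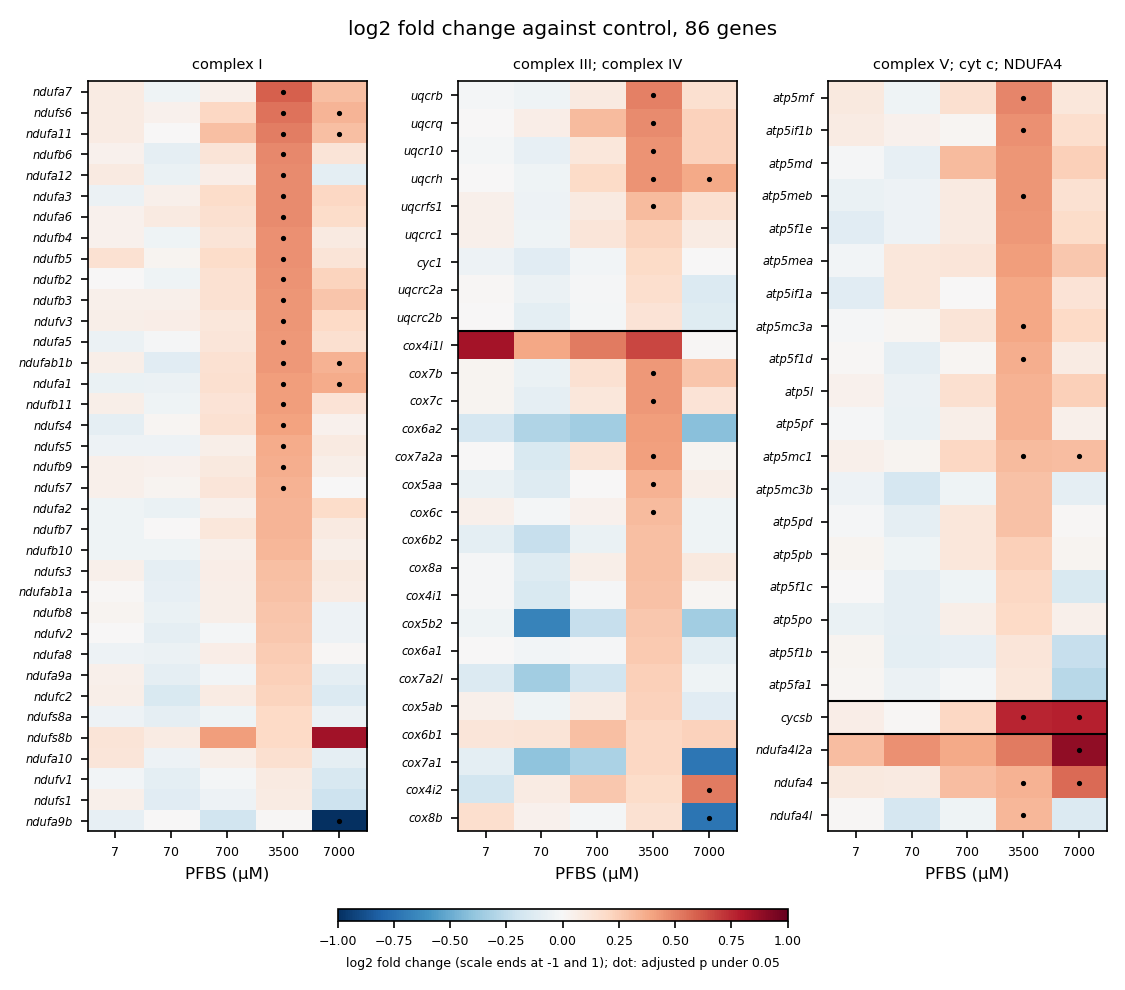
Log2 fold change against controls of 86 of the 87 members tested, by complex, at 5 PFBS concentrations; a dot marks adjusted p under 0.05 (edgeR) and the colour scale ends at -1 and 1. The dots lie at 3500 µM (39 higher) and 7000 µM (10 higher, 2 lower).

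At 7000 µM 10 members rose and 3 fell, 11.5% and 3.45% of those tested, where 25.0% of all genes were called, 12.7% higher and 12.3% lower. The share of members that rose was near that of all genes. Without replicate 3 at 7000 µM, 8 members rose, where 6.3% of all genes were called higher. The median over members was 0.08, beside -0.01 over all genes. All 3 samples lay above all controls in 19 members (20.6% of all genes) and below them in 12 (22.2% of all genes). Summed levels were 10495.7, 9780.3 and 8695.6 CPM at 7000 µM, against 9405.1, 9451.1 and 9902.6 CPM in controls, with replicate 3 below every control. The comparisons at 3500 and 7000 µM share their controls, so calls in both are not independent. In both, 8 members were called higher (atp5mc1, cycsb, ndufa1, ndufa11, ndufa4, ndufab1b, ndufs6 and uqcrh). Of all genes, 5.14% were called higher at 3500 µM and 12.7% at 7000 µM, and the share called in both was not counted.

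Without replicate 3 at 7000 µM, or without control replicate 2, no member was called lower there, and 1 was without control replicate 1. Of the 3 members that fell, cox8b and ndufa9b are described. cox8b had 4.95, 4.3 and 2.35 CPM at 7000 µM, against 6.33, 7.01 and 5.95 CPM in controls. No sample overlapped, and replicate 3 was lowest (log2 -0.73 ± 0.23, adjusted p = 0.028). Leaving out a single library took the adjusted p of cox8b up to 0.15. ndufa9b, at 0.233, 0.303 and 0.336 CPM at 7000 µM and 0.483, 1.59 and 0.471 CPM in controls, was named after its values were seen and rests on few counts (log2 -1.48 ± 0.51, adjusted p = 0.043).

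In many mammals COX6A2, COX7A1 and COX8B are the heart and muscle isoforms of their subunits, and at 7000 µM the zebrafish genes of these names had lower values. cox7a1 had 3.96, 3.33 and 1.51 CPM at 7000 µM, against 4.18, 5.69 and 4.6 CPM in controls (log2 -0.72 ± 0.28, adjusted p = 0.068). cox6a2 had 2.56, 3.51 and 2.91 CPM at 7000 µM, against 3.65, 4.43 and 3.95 CPM in controls (log2 -0.42 ± 0.23, adjusted p = 0.2). Neither passed the test, and without replicate 3 at 7000 µM the adjusted p was 0.3 for cox7a1 and 0.35 for cox6a2. Beside these isoforms, 22 of 28 fast skeletal muscle genes fell at 7000 µM (78.6%, against 12.3% of all genes, with a median of -1.07). Without replicate 3, 19 fell (median -0.71), and the share of all genes called lower in that fit is not given. By edgeR 0 of 28 were called at 3500 µM (1 at an unadjusted p under 0.05). Their summed share of counts was 3.71 to 9.85% at 7000 µM, against 15.6 to 16.3% in controls, and no marker was at 0. Of 9 slow muscle genes 2 fell at 7000 µM (22.2%, against 12.3% of all genes), and 0 without replicate 3. Of 10 heart genes 4 could be tested; by edgeR 0 were called at 7000 µM, with 1 at an unadjusted p under 0.05, and their mean deviation was 0.13, 0.40 and 0.09 at 7000 µM, against -0.46 to 0.30 in controls. The part of muscle and heart cells in the values of these isoforms was not tested. In whole-body RNA, fewer cells of a type and less RNA per cell cannot be told apart.

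Of the 3 NDUFA4 family genes tested, ndufa4 and ndufa4l rose at 3500 µM, and ndufa4 and ndufa4l2a rose at 7000 µM. Differences between these genes were not tested. ndufa4 had 91.1, 95.9 and 108 CPM in controls, 107, 114 and 94.4 CPM at 7 µM, 92.4, 122 and 100 CPM at 70 µM, 125, 125 and 115 CPM at 700 µM, 128, 115 and 133 CPM at 3500 µM and 150, 131 and 156 CPM at 7000 µM. From 700 µM on every sample lay above every control. The log2 fold change was 0.31 ± 0.11 at 700 µM (adjusted p = 0.11), 0.35 ± 0.11 at 3500 µM (adjusted p = 0.048) and 0.57 ± 0.11 at 7000 µM (adjusted p = 0.0016). The call at 7000 µM held in each fit without 1 library, and that at 3500 µM was lost in 12 of 18.

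ndufa4l had 222, 191 and 230 CPM at 3500 µM and 167, 153 and 145 CPM at 7000 µM, against 164, 171 and 176 CPM in controls. It rose at 3500 µM (log2 0.33 ± 0.10, adjusted p = 0.039), did not pass at 7000 µM (-0.14 ± 0.10, adjusted p = 0.3) and was lower at 7000 than at 3500 µM (-0.47, adjusted p = 0.01). ndufa4l2a, a gene of low level named after its values were seen, had 3.32, 3.82 and 3.59 CPM at 7000 µM, against 1.34, 1.92 and 2.53 CPM in controls (log2 0.89 ± 0.21, adjusted p = 0.0068).

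Directly compared, 18 members were lower at 7000 than at 3500 µM, 20.7% of those tested, where 6.28% of all genes were called, 3.84% lower. None was called higher (2.44% of all genes), with 1 at an unadjusted p under 0.05 and 1 by DESeq2. The 18 were 10 genes of complex I, 1 of complex III, 4 of complex IV, 2 of complex V and ndufa4l, and the median over members was -0.27, beside 0.00 over all genes. Of the 39 genes that rose at 3500 µM, 9 were among them, including uqcrb (-0.34, adjusted p = 0.043), cox7a2a (-0.38, adjusted p = 0.035) and ndufa12 (-0.57, adjusted p = 0.016). Both comparisons use the 3500 µM libraries, so a fall among genes picked as high there is favoured by the choice. The share of all genes called in both of these ways was not counted. In the core of complex I, 4 of 8 genes were lower, among them ndufs1, the largest iron-sulphur subunit (-0.28, adjusted p = 0.042), and in the F1 head atp5fa1, the alpha subunit (-0.38, adjusted p = 0.039). The count was 7 with a replicate block, 10 with RLE factors, 9 with no filter on low counts, 3 with library totals only and 1 in a fit of only these groups. It also rests on single libraries: without replicate 3 at 7000 µM, or without replicate 1 at 3500 µM, no member passed, and 5 passed without replicate 3 at 3500 µM, 9 without control replicate 1, 11 without control replicate 2 and 9 without replicate 2 at 700 µM. With library totals as the only scaling the median of all genes was 0.16 and that of the members -0.11, 0.28 lower, and 79.8% of all calls were higher, against 38.8% with TMM and 49.1% with RLE factors. A linear contrast over the order of the 6 groups called 42 members higher and 1, cox8b, lower, where 37.5% of all genes were called, 18.6% higher and 18.9% lower; 27 were higher without control replicate 1 and 25 without replicate 1 at 7000 µM.

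The count at 3500 µM also changed with the library left out. It was 6 without control replicate 1, 9 without control replicate 2, 8 without replicate 1 and 5 without replicate 3 at 3500 µM, and 53 without replicate 2 at 3500 µM. The complex I median ran only from 0.30 to 0.46 over the same fits. At 7000 µM the number of members that rose was 4 without control replicate 1, without control replicate 2 or without replicate 1 at 7000 µM. The shares of all genes called higher in these fits are not given. Fewer calls among members and fewer calls over all genes therefore cannot be told apart here. Among the genes chosen by the naming rule, all but cycsb, uqcrb and atp5if1b lost the call at 3500 µM in at least 1 such fit, and all but cycsb, ndufa4 and cox4i2 that at 7000 µM. Of the genes described, ndufa9b, cox6a1, cox8a, atp5if1b and atp5mc3a overlap a gene annotated on the other strand, whose reads cannot be told apart without a known strand setting, and ndufs1 overlaps one on its own strand. ndufa11 overlaps genes on both strands.

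Transcript length moved with the change at 3500 µM. Members had a median length of 749 nt, against 2143 nt over all genes tested. At 3500 µM all genes under 1000 nt had a median log2 fold change of 0.15, with 8.67% called higher, and those of 1000 nt or more had 0.00, with 4.69% called higher. Among members, 33 of 65 under 1000 nt rose (median 0.36) and 6 of 22 at or above it (median 0.21). Across the 87 members Spearman's rho between length and log2 fold change was -0.41 at 3500 µM and -0.12 at 7000 µM, a description over genes of the same libraries. With a smooth trend over length taken out of each library, 23 members were called higher at 3500 µM and the complex I median there was 0.22.

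**Figure D4:**
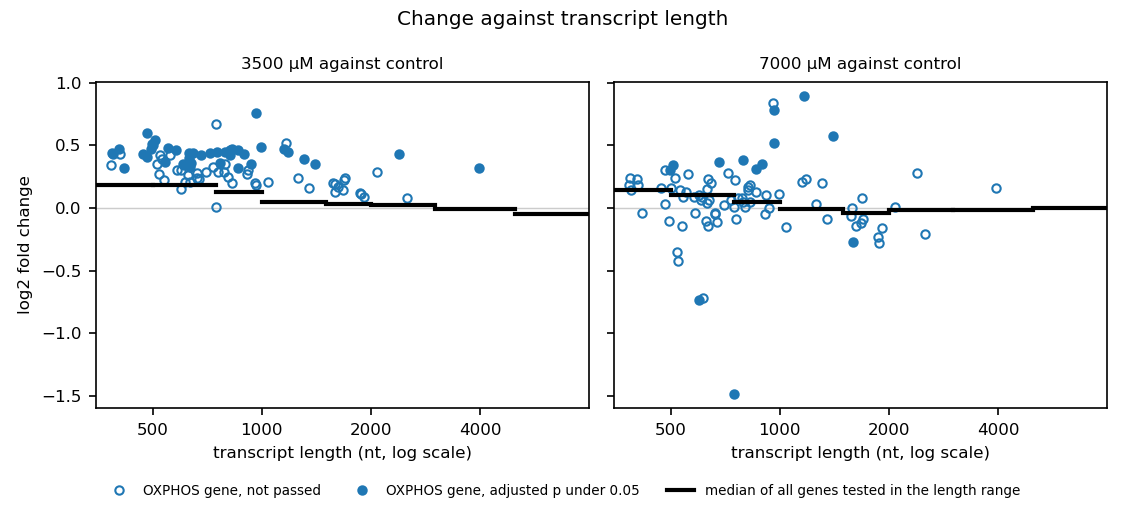
Log2 fold change against transcript length (log scale) of the 87 members at 3500 µM and 7000 µM; filled points passed the test, and black lines are medians of all genes tested in each length range. At 3500 µM the medians of all genes run from 0.18 for the shortest to -0.05 for the longest, and most members lie above them.

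Complex II, succinate dehydrogenase, links the citric acid cycle to the chain; of its 5 genes 3 rose at 3500 µM (sdhb 0.24, sdhc 0.39, sdhdb 0.37) and by edgeR 0 at 7000 µM, where 2 had an unadjusted p under 0.05 and the median was 0.15. The 3 calls at 3500 µM were all lost without control replicate 1 or 2, without replicate 1 or 3 at 3500 µM or without replicate 1 at 7000 µM. Of the 13 subunits encoded in mitochondrial DNA, 12 rose at 3500 µM (median 0.60) and 13 at 7000 µM (median 0.58). In the fits without 1 library 3 to 13 passed at 3500 µM and 7 to 13 at 7000 µM, with 8 there without replicate 3 at 7000 µM. mt-co1, the catalytic subunit of complex IV, had log2 fold changes of 0.60 ± 0.18 at 3500 µM (adjusted p = 0.043) and 0.55 ± 0.18 at 7000 µM (adjusted p = 0.032). These 13 genes took 7.81 to 10.5% of counts at 3500 µM and 8.6 to 11.5% at 7000 µM, against 5.99 to 6.63% in controls.

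Of 52 assembly factors, 7 rose at 3500 µM (13.5%, against 5.14% of all genes; median 0.24) and 9 at 7000 µM (17.3%, against 12.7% of all genes; median 0.17), and none was called lower. Without replicate 3 at 7000 µM, 5 rose there, and over all fits without 1 library the counts were 0 to 15 at 3500 µM and 2 to 10 at 7000 µM. uqcc2, an assembly factor of complex III, had log2 values of 0.49 ± 0.12 (adjusted p = 0.018) and 0.45 ± 0.12 (adjusted p = 0.011). pet100, which is needed for complex IV in mammals, did not pass at 3500 µM (0.48 ± 0.20, adjusted p = 0.13) and rose at 7000 µM (0.82 ± 0.19, adjusted p = 0.0069).

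Among 17 regulators of mitochondrial biogenesis, 3 rose (17.6%, against 5.14% of all genes) and 1 fell (5.88%, near the 4.33% of all genes) at 3500 µM. At 7000 µM 4 rose (23.5%, against 12.7% of all genes) and none was called lower. The medians were 0.11 and 0.02 at 3500 and 7000 µM, and 1 rose at 7000 µM without replicate 3. Over all fits without 1 library, 0 to 3 rose at 3500 µM and 1 to 4 at 7000 µM. At 3500 µM the called genes were tfb1m, a methyltransferase of mitochondrial ribosomal RNA (0.86 ± 0.19, adjusted p = 0.011), tfb2m, a mitochondrial transcription factor (0.34 ± 0.09, adjusted p = 0.026), yy1a (0.35 ± 0.10, adjusted p = 0.041) and, lower, esrrga, an oestrogen-related receptor (-0.56 ± 0.13, adjusted p = 0.017). At 7000 µM they were, in the fit of all libraries, esrrgb (1.33 ± 0.22, adjusted p = 0.00073), yy1a (0.40), nrf1 (0.34) and ppargc1b (0.33). The coactivator ppargc1a had a log2 value of -0.46 ± 0.17 at 3500 µM and did not pass (adjusted p = 0.098).

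**Figure D5:**
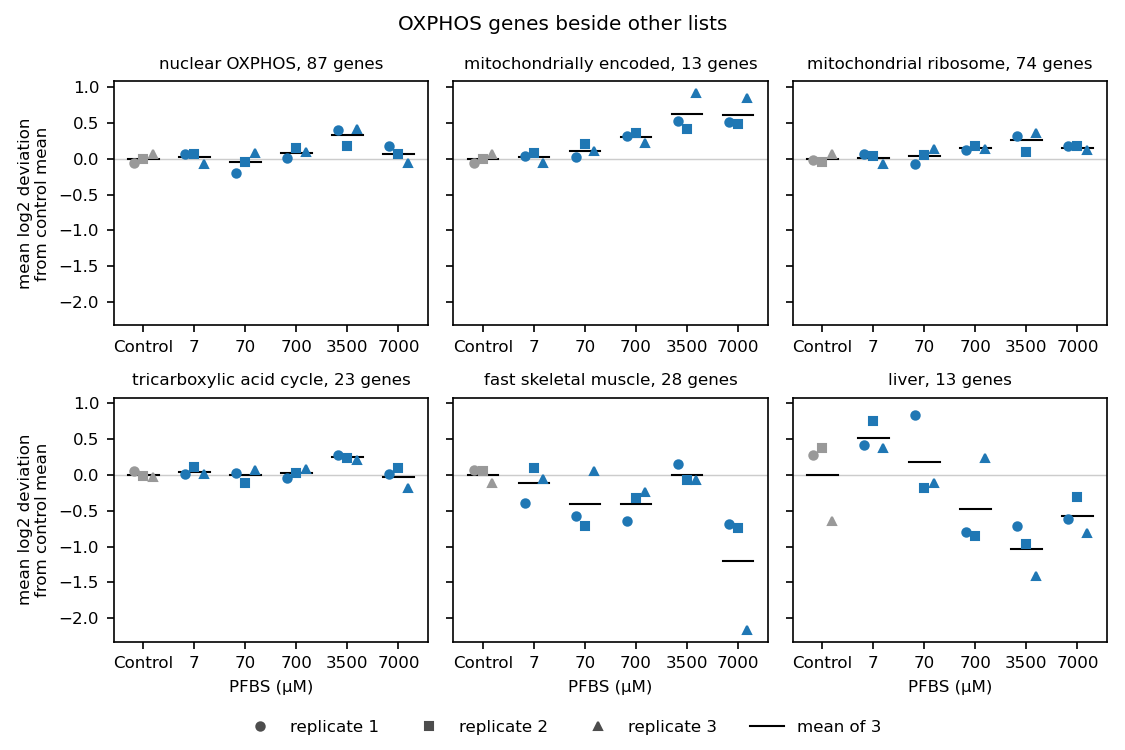
Mean log2 deviation from the control mean in every library for the nuclear members and 5 other gene lists; bars are means of 3. At 7000 µM the fast skeletal muscle list lies at -0.69, -0.74 and -2.17 and the mitochondrially encoded list at 0.48 to 0.84, while the nuclear members lie between -0.06 and 0.18.

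Markers of some other tissues also moved. Of 13 liver genes 6 fell at 3500 µM (46.2%, against 4.33% of all genes), and none of them was at 0. Their summed level was 596 to 763 CPM, against 615 to 963 CPM in controls. Only 1 fell without control replicate 1 or replicate 3 at 3500 µM, 2 without control replicate 2 and 10 without control replicate 3. Also at 3500 µM, 3 of 10 photoreceptor genes rose and 1 fell. Of 10 neuron genes 2 fell, and of 7 enterocyte genes 1 rose, where 5.14% of all genes were called higher. No gene tested in the slow muscle, heart, skin ionocyte, epidermis and notochord or erythrocyte lists passed there. Counts without 1 library are not given for these lists at 3500 µM. At 7000 µM, where 12.7% of all genes were called higher and 12.3% lower, 9 of 10 photoreceptor genes rose, and 6 of 8 erythrocyte genes and 6 of 9 genes of epidermis and notochord fell. Without replicate 3 at 7000 µM, 9 photoreceptor genes rose and 1 fell, and 3 erythrocyte genes and 3 of epidermis and notochord fell. Other tissue lists had fewer calls at 7000 µM in the fit of all libraries. Of 10 neuron genes 3 rose and 0 fell, and of 10 skin ionocyte genes 1 rose and 2 fell. Of 7 enterocyte genes 2 fell, and of the 13 liver genes 4 fell. Counts without replicate 3 at 7000 µM are not given for the neuron, skin ionocyte, enterocyte and liver lists. The part of tissue makeup in the members' values was not tested. At 3500 µM fast muscle genes took 14 to 16.4% of counts, against 15.6 to 16.3% in controls.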

How the data were processed

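Whole-body RNA of 18 samples was analysed. Read counts per transcript, TPM and RPKM values were deposited by the authors, per the file headers; TPM and RPKM are scaled for library size and length. No header or label used here names the aligner, counting program, build, annotation or strand setting. Deposited counts were summed per gene (59876 transcripts, 32520 genes). filterByExpr left 21046 genes, which entered 1 edgeR 4.0.16 quasi-likelihood fit (R 4.3.3, limma 3.58.1) of all 18 libraries with TMM scaling and a mean per group; the fit was tested on simulated data. The common dispersion was 0.0167, a variation of 12.9% among replicates. DESeq2 1.42.0, other scalings and filters, a transcript-level fit, fits of the groups compared, fits without 1 library and a length offset were alternatives. Library totals as the only scaling, the length offset and the fits without 1 library for the other gene lists were chosen after seeing the data. Transcript lengths came from deposited counts and RPKM, with 231.2 nt added back to the effective length. Deposited TPM values chose the members with the highest level for naming, and levels per length are CPM per kilobase; authors' fold changes and calls were not used.

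Replicates differed beyond counting error in every pair (chi-square per degree of freedom 5.5 to 61.55). Members and lists were chosen with earlier results of these data known. Genes were named by rule: the 2 members with the highest TPM in each complex, up to 3 in each direction past the threshold at 7000 µM with at least 5 CPM, any member called below 3500 µM, and isoform sets. Other members (ndufs7, ndufs1, ndufs8b, ndufab1a, ndufa9b, ndufa11, ndufa4l2a, ndufa12, uqcrfs1, cyc1, atp5fa1) and genes of other lists were named after their values were seen. Of the 89 members, 20 overlap another annotated gene, and close copies may share reads. Of the member identifiers, 88 were found in the name table used as reference, 74 with the same symbol; it pairs the identifier of cox6a2 with a COX6A1 name. NDUFB1, COX5B and COX7A2, written in capitals in the deposited table, fell outside the symbol rule. COX5B, with a mean of 158 CPM in controls, is therefore missing from the counts of complex IV. By edgeR it rose at 3500 µM (log2 0.29 ± 0.09, adjusted p = 0.044). It was lower at 7000 than at 3500 µM (-0.33 ± 0.09, adjusted p = 0.031). NDUFB1 and COX7A2, both of low level, did not pass in either comparison. 1 member is counted in the totals but not reported here.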

Additional observations from a re-analysis of the deposited data

How the results depend on the processing

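With 3 samples a group, counts of members past the threshold moved more than fold changes. Signs were checked for the tested genes chosen by the naming rule, at each concentration against controls. None of these changed sign with a call under any alternative. Left-out libraries gave 5 to 53 members higher at 3500 µM, 4 to 11 higher and 0 to 4 lower at 7000 µM, 0 to 1 higher and 0 to 21 lower at 7000 than at 3500 µM, and 25 to 48 higher and 0 to 2 lower in the trend. The shares of all genes called in those fits are not given with these ranges. At 3500 µM, 23 members were higher with the length offset, 14 with library totals only and 14 at transcript level. Library totals only gave medians there of 0.23 for complex I, 0.19 for complex III and 0.22 for complex V, and the length offset gave 0.22 for complex I. At 700 µM 1 was higher in a fit of only the groups compared. At 7000 µM 5 were higher at transcript level, where each gene was taken by its most abundant transcript. By edgeR those of ndufa1, ndufa11, ndufab1b, ndufs6 and uqcrh did not pass (adjusted p = 0.074, 0.077, 0.23, 0.064 and 0.093). Less abundant transcripts of ndufa1 and ndufab1b passed. Lower at 7000 µM were 5 with upper-quartile factors, 5 with DESeq2 and 1 in a fit of only the groups compared. At 700 µM, 29.3% of all calls were higher with upper-quartile factors, against 39.6% with TMM.

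For 7000 against 3500 µM, 10 were lower with RLE size factors, 9 with no filter, 9 with the length offset, 4 at transcript level, 3 with library totals only and 1 with only the groups compared; higher were 2 with library totals only, 1 with the length offset and 1 with DESeq2. In the trend 25 were higher with the length offset, and lower were 3 with upper-quartile factors, 3 with library totals only, 2 with the length offset and 0 at transcript level. What caused these counts to move was not tested.

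The replicate numbers were not found to pair the samples: 13 of 45 same-numbered pairs correlated above 0.1 (range -0.335 to 0.266), and 4 of 18 libraries were closest to their own number. With a replicate block 7 members were lower at 7000 than at 3500 µM.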

Other observations

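Of 74 genes of the mitochondrial ribosome, which translates the subunits encoded in mitochondrial DNA, 8 rose at 3500 µM (10.8%, against 5.14% of all genes; median log2 0.27, all 74 above 0) and 7 at 7000 µM (9.46%, below the 12.7% of all genes; median 0.16). Over the fits without 1 library 1 to 34 rose at 3500 µM and 1 to 11 at 7000 µM, with 2 there without replicate 3 at 7000 µM. Of 24 genes of the outer and inner membrane import machinery that were tested, 8 rose at 3500 µM (33.3%) and 7 at 7000 µM (29.2%); over the fits without 1 library these were 1 to 10 and 3 to 9, with 4 at 7000 µM without replicate 3 there. timm17a, a channel component of the inner membrane translocase, had 67.3, 66.2 and 65.8 CPM at 3500 µM and 65.6, 68 and 69.6 CPM at 7000 µM, against 45.2, 48.2 and 50.3 CPM in controls. Its log2 fold changes were 0.47 ± 0.08 (adjusted p = 0.0014) and 0.50 ± 0.08 (adjusted p = 0.00037), and no exposed sample overlapped the controls.

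Among 23 genes of the citric acid cycle and pyruvate entry, 4 rose at 3500 µM (17.4%, against 5.14% of all genes, and 1 to 5 without 1 library). pdk2b, a kinase that inhibits pyruvate dehydrogenase, had 124, 190 and 110 CPM at 3500 µM, against 46.3, 34.1 and 38.8 CPM in controls (log2 1.83 ± 0.34, adjusted p = 0.0047), and pdk2a had a log2 value of 0.63 ± 0.14 (adjusted p = 0.013). At 7000 µM pdha1b, a subunit of pyruvate dehydrogenase, rose (0.71 ± 0.15, adjusted p = 0.0042), and sucla2 (-0.36) and idh3b (-0.34), both of the cycle, fell. These shares, 4.35% higher and 8.7% lower, were below the 12.7% and 12.3% of all genes. No gene of the list was called lower without replicate 3 at 7000 µM or without control replicate 1. Of 8 carrier and porin genes, slc25a3a, a phosphate carrier (0.74 ± 0.12, adjusted p = 0.00067), and vdac1 (0.32) rose at 7000 µM and vdac2 (-0.47) fell. That was 25.0% higher and 12.5% lower, against 12.7% and 12.3% of all genes. Without replicate 3 at 7000 µM 1 rose and none fell. At 3500 µM none was called, with 1 at an unadjusted p under 0.05.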
